A study of Homo sapiens with 6 samples.

Results

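The comparison set RNA that came down with NAT10 in cells labelled DLD-1 against total RNA of the same label. NAT10 immunoprecipitation of RNA (RIP) was sequenced in 1 library labelled DLD-1, and its partner was 1 Input library labelled DLD-1. Each gene was described by the log2 ratio of RIP FPKM plus 1 to Input FPKM plus 1 (FPKM, fragments scaled by gene length and by the size of the library), so that 0 is an equal level and 1 is 2-fold higher. A gene entered when its Input FPKM was at least 1, and 15599 of the 58302 genes of the table did. All 6 libraries of the series came from untreated wild-type cells of the human colorectal cancer lines SW480 and DLD-1, and each line gave 1 Input, 1 NAT10 RIP and 1 library of RNA precipitated with an antibody against N4-acetylcytidine (ac4C). There were no replicates, so each ratio compares libraries and not conditions, and no test was run.

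NAT10 is an acetyltransferase of the nucleolus and nucleus that places ac4C on 18S ribosomal RNA, where box C/D snoRNAs guide it, on serine and leucine tRNAs and, as has been described, on mRNA. A protein RIP recovers the RNA that stays with the protein in a cell lysate, whereas Input holds the RNA of the lysate or cell as a whole. The ratio is therefore a share of the RIP library over a share of the Input library, and a large gain in abundant genes lowers the shares of all others. In bulk libraries, fewer cells that express a gene and less of its RNA per cell cannot be told apart.

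The labels of the libraries did not sort them by expression. Over 16183 protein-coding genes above 0 in any library, the RIP labelled DLD-1 had a Pearson correlation (on log2 FPKM plus 1) of 0.853 with the Input labelled DLD-1 and of 0.950 with the Input labelled SW480. The RIP labelled SW480 had 0.869 with the Input of its own label and 0.944 with the Input labelled DLD-1. Genes that mark cell lines went the same way. VIM, the intermediate filament of mesenchymal cells, was at 11.1 FPKM in the Input labelled DLD-1 but at 0.804 in the RIP labelled DLD-1 and at 0.0770 in the Input labelled SW480, while the RIP labelled SW480 held 128. KRT20, a keratin of differentiated colon epithelium, was at 0.0426 in the Input labelled DLD-1, at 23.9 in the RIP labelled DLD-1 and at 29.2 in the Input labelled SW480. EPCAM, KRT8, KRT18, KRT19 and CDH1, which define epithelial cells, were above 50 FPKM in all 4 libraries of the table. Of all 11 epithelial markers, 9 reached 1 FPKM in the RIP and 8 in the Input labelled DLD-1. CDX1 was at 0 in both, and VIL1 at 0.687 and 0.261. LGALS4 differed between the Inputs in the other direction from KRT20, at 4.78 under the DLD-1 label and 0.936 under SW480. None of the 4 erythroid or 4 endothelial markers reached 1. The summed level of 11 epithelial markers was 2983 FPKM in the RIP labelled DLD-1, 1709 in the Input labelled DLD-1 against 3411 in the one labelled SW480, and that of 8 mesenchymal markers was 1.31, 18.5 and 1.26. Of 7 immune markers 5 were at 0 in the RIP and 6 in the Input labelled DLD-1. Which label is wrong, if any, was not tested, so the main counts, classes, lengths and leading genes are also given over the Input labelled SW480, and the main counts for the 7814 genes whose Inputs under both labels lay within 1.5-fold of each other (like Inputs).

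Input values were deposited in 2 tables. Among the 3746 genes with at least 10 whole reads in the acRIP table (within 0.01 of a whole number) for the Input labelled DLD-1, 362 had exactly the reads of the Input with that label in the RIP table, while 23 had the reads of the other Input. For the Input labelled SW480 these numbers were 288 and 34 of 3503. The acRIP table's values are called the second quantification below. The quantifications differed by gene, and 10510 of the 15599 genes lay within 1.5-fold of each other once both were set to a common median. The difference moved with the ratio: the 9086 protein-coding genes within 1.5-fold had a median ratio of -0.05, the 210 whose second value was 2-fold to 4-fold above the first had 0.83, and the 46 more than 4-fold above it had 1.37. Over the second values the medians of the same 210 and 46 genes were -0.49 and -1.09. Ratios over the second quantification are given for many of the genes named below.

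The FPKM steps gave back whole reads: 24413972 reads on genes in the RIP and 13016692 in the Input labelled DLD-1. A counting error on the log2 ratio could thus be computed for each gene, and its median over the 15599 genes was 0.09. It covers the counting of reads only, and it says nothing of how a second RIP would differ.

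At the threshold of 2-fold, more genes were below Input than above it. The ratio was at least 1 in 1896 genes, 12.2% of the 15599, and at most -1 in 4832 genes, 31% of them. The median over all genes was -0.33 and the quartiles were -1.19 and 0.45. Over the Input labelled SW480, the same 15599 genes had 1409 at least 2-fold higher (9.03%), 1456 at least 2-fold lower (9.33%) and a median of 0.00. Of the 1896 higher genes, 778 were also at least 2-fold above the Input labelled SW480, and of the 4832 lower genes 1127 were at least 2-fold below it. Among genes with like Inputs, 822 were higher (10.5%) and 976 lower (12.5%).

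The ratio followed the difference between both Inputs. Its Spearman correlation with the log2 ratio of the Input labelled SW480 to the Input labelled DLD-1 was 0.70 over 15599 genes, which share the Input labelled DLD-1 in both measures. Of the 4832 lower genes, 2990 were at least 2-fold lower in the Input labelled SW480 too, against 3757 of all 15599 genes, and of the 200 lowest genes 153 were. The filter asked for a level in the Input alone, and it left out 1612 genes with at least 1 FPKM in the RIP and less than 1 in the Input, among them KRT20. Of the 118 left-out genes with at least 10 FPKM in the RIP, 86 reached 1 FPKM in the Input labelled SW480.

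**Figure D1:**
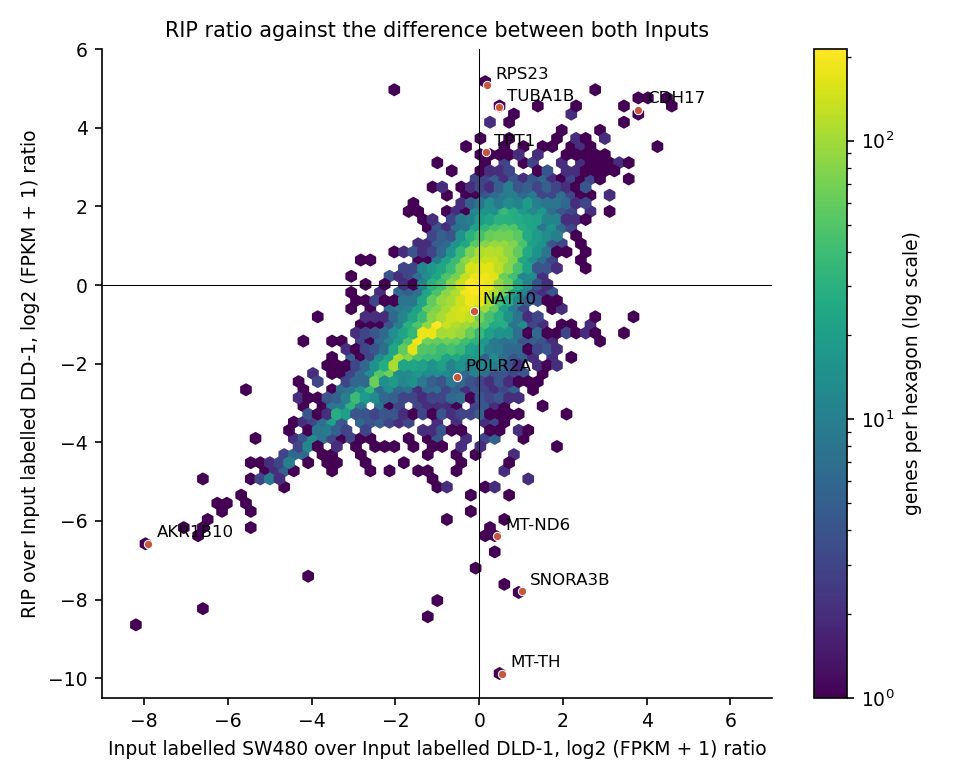
The log2 ratio of RIP to Input under the DLD-1 label (vertical) against the log2 ratio of the Input labelled SW480 to the Input labelled DLD-1 (horizontal), both on FPKM plus 1, for genes with Input FPKM at least 1; colour counts genes on a log scale and named genes are marked in red. The ratios rise together along the diagonal, with AKR1B10 at -6.58 and CDH17 at 4.46 at its ends, while RPS23 and TPT1 (high) and POLR2A and MT-ND6 (low) lie within 1 of 0 on the horizontal axis.

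RNA sequences at both ends are shown to identify the molecules behind the values. Among genes that passed the filter on Input, most microRNA genes lay at the low end, whereas with RIP or Input at least 1 more of them were higher (57.2%) than lower (40.2%). Their short mature products pair with target mRNAs through the seed. Mature sequences from RefSeq (GRCh38.p14) are printed 5′ to 3′ with the seed, bases 2 to 8, in capitals, for the lowest genes that had an entry among the 9 microRNA genes with at least 50 reads in RIP and Input together, and for the single one that was higher.

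hsa-miR-4449 (chr4:52712720-52712741, plus strand): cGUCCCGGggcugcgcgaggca
hsa-miR-3929 (chr18:35934088-35934110, minus strand): gAGGCUGAugugaguagaccacu
hsa-miR-4521 (chr17:8186948-8186969, plus strand): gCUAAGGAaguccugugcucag
hsa-miR-1244 (chr5:118974640-118974665, plus strand): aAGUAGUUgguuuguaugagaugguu

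No seed was shared among them. MIR4449 had 1.20 FPKM in the RIP, 136 in the Input labelled DLD-1 against 75.7 in the one labelled SW480, a ratio of -5.96 from 2 and 121 reads. MIR3929 and MIR4521 stood at -3.94 and -3.85, and MIR1244-2, with 51.4 FPKM in the RIP against 9.59 and 20.9, at 2.31 and at 1.12 over the second quantification. Mature MIR1244 is encoded by several identical copies, so its reads may have been split among them. These long-RNA libraries count fragments over the annotated hairpin, which need not be mature microRNA.

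Of 83 cytosolic ribosomal protein genes 48.2% were higher, beside 14.96% of all protein-coding genes. Many of their mRNAs begin with a 5′ terminal oligopyrimidine tract, a C followed by other pyrimidines through which mTOR signalling controls their translation. The windows below hold 25 bases, from 5 before the annotated start to 20 from it on, on the gene's strand, from RefSeq (GRCh38.p14). Capitals mark a C followed by at least 4 bases that are each C or T, with the C within 5 bases of the start, searched on the gene's strand only. Only genes with 1 listed start and at least 50 reads were taken, leaving out those on a chromosome not shown here. The first 3 were the highest of these among cytosolic ribosomal protein genes, the next 3 the highest others with like Inputs, and the last 2 the lowest ribosomal protein genes.

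RPS23 (chr5:82278335-82278359, minus strand): cttctCTCTTTCgctcaggcccgtg
RPL9 (chr4:39458903-39458927, minus strand): acgacagacgttctttctttgctgc
RPL41 (chr12:56116628-56116652, plus strand): cctttCTCTCggccttagcgccatt
TUBA1B (chr12:49131376-49131400, minus strand): gccctagtgcgttacttacctcgac
RHOF (chr12:121793669-121793693, minus strand): ccgacCTCTTggctccgctagtgcc
TMA7 (chr3:48440252-48440276, plus strand): gctccgtttccggtggcagggtctg
RPS21 (chr20:62387098-62387122, plus strand): tgcttCCTTTCTCTCTCgcgcgcgg
RPL31 (chr2:101002284-101002308, plus strand): gcgctCTTCCTTTCCaacttggacg

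Among the windows shown, such a run was found in ribosomal protein genes of high and low ratio, in RPS23 (5.09) and RPL41 (3.41) as in RPS21 (-0.74) and RPL31 (-0.57). Over the 56 cytosolic ribosomal protein genes with 1 listed start, 48 (85.7%) held it, against 20.8% of all 22114 such promoters. Among protein-coding genes with like Inputs, 24.5% of the 440 higher genes and 24.3% of the 226 lower genes held it, beside 23.1% of all 3761. Within those 3761 genes, the median ratio was 0.14 with the run and 0.06 without it. With the C at the start itself, the shares were 10.0%, 6.19% and 6.30%.

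Genes at the high end were nearly all protein-coding. Of the 1896 higher genes, 1745 (92.0%, Wilson 95% interval 90.7 to 93.2) were protein-coding, 86 were pseudogenes, 40 long non-coding RNA genes, 15 small RNA genes and 8 mitochondrially encoded. Of the 4832 lower genes, 2281 (47.2%, 45.8 to 48.6) were protein-coding, 1202 (24.9%) long non-coding, 821 (17.0%) pseudogenes and 429 (8.88%, 8.11 to 9.71) small RNA genes. By class, 14.96% of 11668 protein-coding genes were higher and 19.5% lower, with a median of -0.06. The shares that were lower came to 62.5% of 1923 long non-coding genes (median -1.24), 62.0% of 1325 pseudogenes (-1.18) and 83.1% of 516 small RNA genes (-2.10). These intervals treat genes as independent draws and cover counting of genes only.

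That contrast was smaller over the other Input or with another filter. Over the Input labelled SW480 the medians were 0.00 for long non-coding genes, -0.17 for pseudogenes and -0.30 for small RNA genes. Where a gene entered with at least 1 FPKM in either the RIP or the Input, 35.8% of 797 small RNA genes were higher and 53.8% lower, and long non-coding genes were at 17.0% and 49.98%. Under that filter the higher genes were no longer richer in protein-coding genes, at 69.0% beside 71.2% of all genes that entered. With like Inputs the other classes still lay below protein-coding genes: 6.01% of 6617 protein-coding genes were lower, 44.5% of 559 long non-coding genes, 45.5% of 455 pseudogenes and 79.7% of the small RNA genes. Among genes with at least 50 reads, 65.1% of 109 small RNA genes and 44.5% of 895 long non-coding genes were lower. Protein-coding genes made up 92.5% of the higher genes there and 87.3% of all. Of 563 pseudogenes with such reads 14.9% were higher and 33.0% lower, beside 15.3% and 18.1% of 11389 protein-coding genes.

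**Figure D2:**
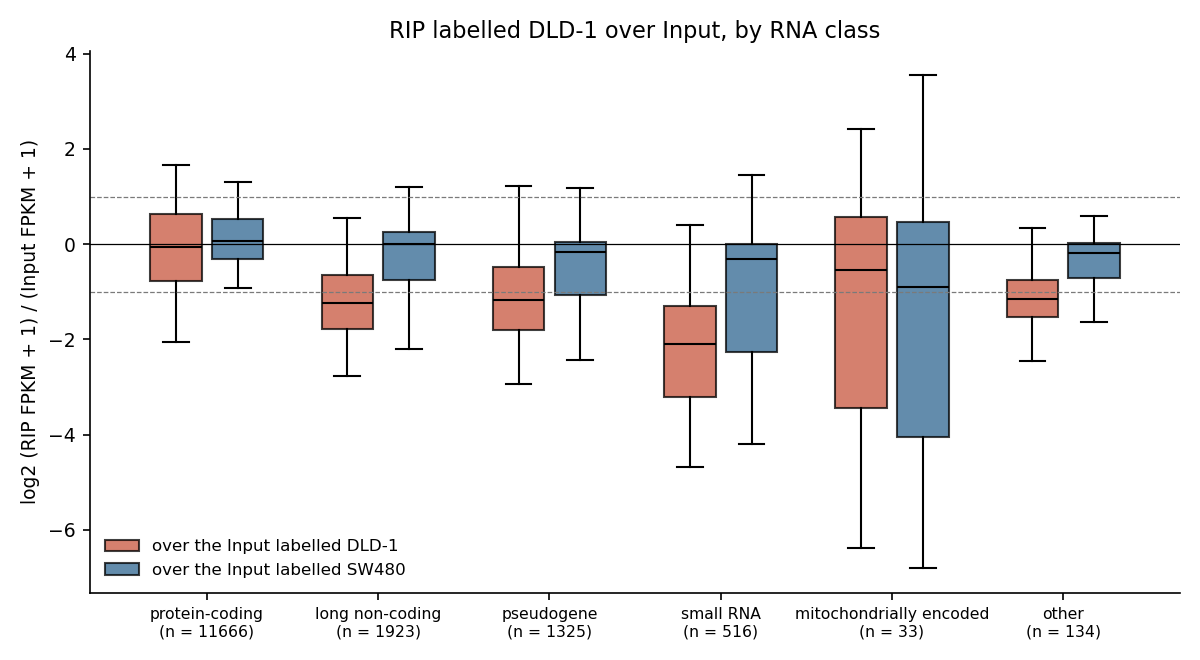
Log2 ratio of the RIP labelled DLD-1 over the Input labelled DLD-1 (red) and over the Input labelled SW480 (blue) by RNA class; boxes are quartiles, the line is the median, whiskers reach the 5th and 95th percentiles and dashed lines mark 2-fold. Over the Input labelled DLD-1 the medians fall from -0.06 in protein-coding genes to -2.10 in small RNA genes, and over the other Input they lie between 0.07 and -0.30 in these classes.

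The median of small nucleolar RNAs with Input at least 1 lay below 0 in every pairing of the libraries. These RNAs guide chemical changes of ribosomal and spliceosomal RNA (box C/D for methylation, box H/ACA for pseudouridine). Of 129 small nucleolar and Cajal body RNA genes with Input at least 1, among 847 listed, 87 were lower (67.4%) and 8 higher (6.20%), with a median of -1.67. Of all 516 small RNA genes, which include them, 83.1% were lower and 2.91% higher, so the low position was not particular to this list. Members passed through Input alone, and of the 156 genes of the snoRNA biotype with RIP or Input at least 1, 83 were lower and 40 higher (25.6%), with a median of -1.29. For the 129 genes the median was -1.49 over the Input labelled SW480 and -1.73 over the second quantification, and 45 of the 59 with like Inputs were lower. For the RIP labelled SW480 the medians of the same genes were -2.21 and -2.31 over the Inputs labelled SW480 and DLD-1. Medians were -1.70 in 52 SNORD genes, -1.79 in 62 SNORA genes and -0.81 in 15 SCARNA genes, whose RNAs sit in Cajal bodies. SNORA3B, a box H/ACA RNA (chr11:8685439-8685569, 131 bases), had 7.58 FPKM (25 reads) in the RIP, 1881 (3327 reads) in the Input labelled DLD-1 against 3809 in the one labelled SW480, a ratio of -7.78 (counting SE 0.26). SNORD3A, the U3 RNA that acts in the first cuts of pre-ribosomal RNA, was at 408 FPKM in the RIP and 1132 in the Input, a ratio of -1.47. SNORD3B-2, another U3 copy, stood highest at 3.52, but at 0.48 over the second quantification, and reads of these near-identical copies may be split.

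Other short RNAs moved more unevenly. Of 125 spliceosomal small nuclear RNA genes with Input at least 1, 105 were lower (84%, near the 83.1% of all small RNA genes). Their median over the Input labelled SW480 was 0.00, however. Members passed through Input alone. Of the 190 genes of the snRNA biotype with RIP or Input at least 1, 105 were lower and 65 higher (34.2%), with a median of -1.25. The 125 genes included 71 RNU6 copies, of which 68 were lower and 56 listed at 0 in the RIP. The median of the RNU6 copies over the Input labelled SW480 was 0.00. The functional U4 genes RNU4-2 (794 FPKM in the RIP and 3130 in the Input, -1.98) and RNU4-1 (-1.01) were low over both Inputs, at -2.18 and -1.23 over the Input labelled SW480. RNU1-67P, the lowest at -8.66, was listed at 0 in the RIP and had 403 FPKM in the Input labelled DLD-1 but 0.417 in the Input labelled SW480. The second quantification of the Input labelled DLD-1 held 14.1 FPKM, for a ratio of -4.39. Among Y RNAs, small partners of the Ro protein, RNY3 had 0 reads in the RIP and 43 in the Input, and RNY4 stood at -4.85, whereas RNY1 stood at 0.44 and at -1.31 over the Input labelled SW480. RN7SL2, a copy of the signal recognition particle RNA, alone took 15.5% of the FPKM sum of the RIP and 19.4% of that of the Input.

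MIR3648-1 and MIR3687-1, short hairpin genes annotated within the ribosomal DNA repeat, were near 0 in the RIP. MIR3648-1 (chr21:8208473-8208652) had 7 reads and 1.54 FPKM in the RIP against 1612 reads and 663 FPKM in the Input labelled DLD-1 against 355 FPKM in the one labelled SW480, a ratio of -8.03. MIR3687-1 had 1 read against 450, a ratio of -8.37, and -7.08 over the Input labelled SW480. RNA5-8S4, a copy of mature 5.8S ribosomal RNA, was at 0.519 FPKM in the RIP and at 457 in the Input labelled DLD-1 (-8.24). It was at 3.58 in the Input labelled SW480, however, and its ratio over the second quantification was 0.13, so its place at the low end rests on 1 quantification of 1 library. Of all 85 microRNA genes with Input at least 1, 78 were lower (91.8%, beside 83.1% of all small RNA genes). The median over the Input labelled SW480 was 0.00, however. The direction turned with the filter: with RIP or Input at least 1, 111 of 194 microRNA genes were higher and 78 lower, and the median was 1.23.

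Mitochondrially encoded RNAs split by kind. The mitochondrial genome is copied into long transcripts that are cut at their tRNAs. All 13 mitochondrial mRNAs had like Inputs, and their median was -0.41. Among them 3 were higher and 2 lower. MT-CO1, a subunit of cytochrome oxidase, was at 10529 FPKM in the RIP and 14100 in the Input (-0.42). MT-ND6, a complex I subunit and the only one of these mRNAs on the opposite strand, was at 60.3 FPKM in the RIP, 5135 in the Input labelled DLD-1 against 6869 in the one labelled SW480, a ratio of -6.39 and of -6.97 over the second quantification. MT-ND3 (1.15), MT-ND4L (1.01) and MT-ND5 (1.002) were 2-fold above Input. The ribosomal RNA MT-RNR2 was at 939 against 270 FPKM (1.80) and MT-RNR1 at 435 against 630 (-0.53). Of 18 mitochondrial tRNAs 12 were lower and 4 higher, and 6 were listed at 0 in the RIP, among them MT-TH with 944 FPKM in the Input, the lowest of all genes at -9.88. MT-TW, at 137 FPKM against 3.27 (3 reads), stood at 5.01 and at 3.94 over the second quantification. Whether the counting used strand is not given in the sources used here, so reads of a gene and of its antisense partner cannot be told apart.

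Lengths were taken from the FPKM steps, as the shortest length that gave whole reads in every library where the gene was above 0. A gene at 0 in the RIP or with few reads sets fewer limits, so its length can come out too short. MT-TH, the lowest gene and at 0 in the RIP, came out at 23 bases. How much of the link between short length and the low end comes from this step was not tested. Higher genes had a median length of 2725.5 bases (quartiles 1686 and 4219), lower genes 1363 (485 and 3326) and the genes between them 3366. Within protein-coding genes alone the medians were 2887 for higher, 3314 for lower and 3708 for the rest, so both ends were shorter than the middle. In all genes the share that was lower fell from 85.0% below 200 bases to 18.3% at 4000 to 8000 bases, and the share that was higher was largest, at 16.0%, from 1000 to under 2000 bases. In protein-coding genes the share that was higher fell from 23.1% at 500 to under 1000 bases to 6.07% from 8000 bases on, and in those with like Inputs from 22.7% to 4.04%. The share that was lower moved less there, between 5.39% and 10.4%. Across genes, the Spearman correlation of length with the ratio was 0.27 over all 15599 genes and 0.02 with the ratio over the Input labelled SW480, and in protein-coding genes it was -0.07 and -0.19. Genes are not independent replicates, and short genes have fewer reads.

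**Figure D3:**
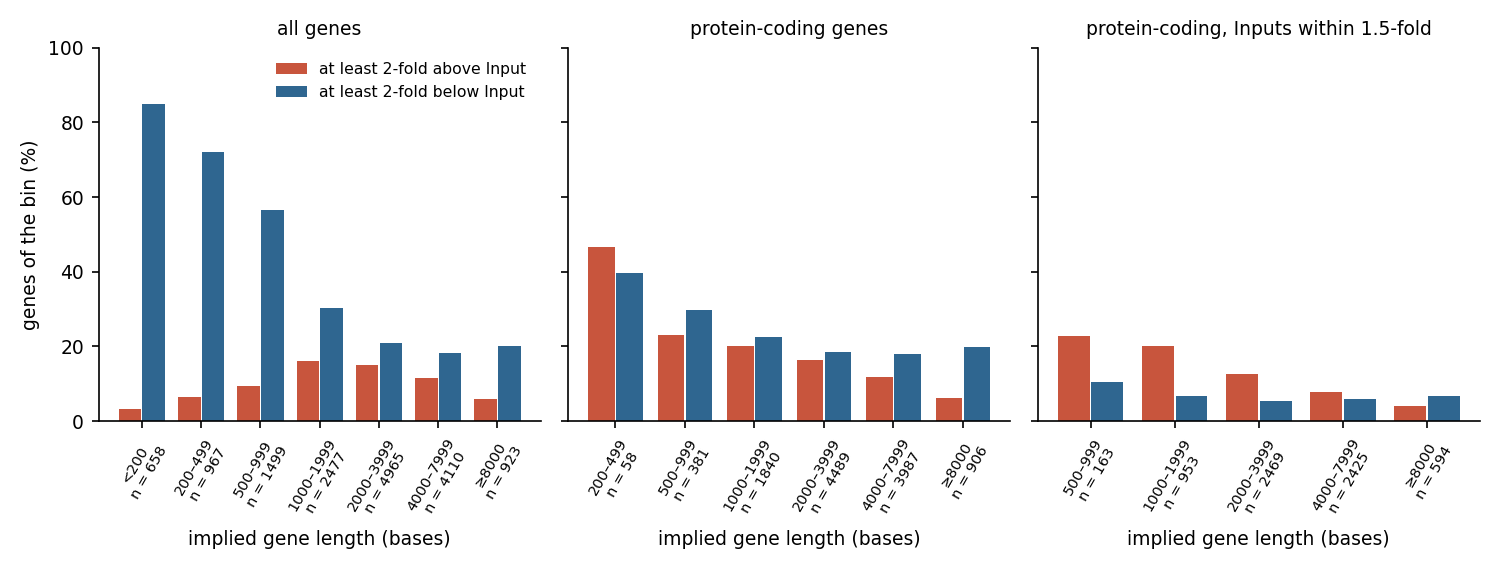
Percent of the genes of each length bin at least 2-fold above (red) or below (blue) the Input labelled DLD-1, for all genes, protein-coding genes and protein-coding genes with like Inputs; n is the genes in a bin, and bins under 20 genes are left out. Blue bars fall with length in all genes, from 85.0% to 20.04%, while red bars fall with length in protein-coding genes with like Inputs, from 22.7% to 4.04%.

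The protein-coding genes at the low end were present in 1 Input and near 0 in the other. AKR1B10, an aldo-keto reductase (chr7:134527567-134541412), was at 2.37 FPKM in the RIP, 321 in the Input labelled DLD-1 against 0.344 in the one labelled SW480. Its ratio was -6.58 (counting SE 0.11), and 1.33 over the Input labelled SW480. The actin-binding genes DBN1 (-6.25), MSN (-6.24) and FLNC (-5.78), the Wnt antagonist DKK4 (-6.42), the cross-linking enzyme TGM2 (-6.10) and the basal keratin KRT5 (-5.99) followed, with ZAP70 (-5.74), a kinase of T cell receptor signalling, the retinol transporter STRA6 (-5.52), and AKR1C1 (-5.46). These 10 genes lay between 50.5 and 321 FPKM in the Input labelled DLD-1 and at 2.37 FPKM or less in the RIP. In the Input labelled SW480 none passed 2.23 FPKM, and the ratios over it lay between -0.83 and 1.33. In the RIP labelled SW480 the same 10 genes lay between 31.2 FPKM (ZAP70) and 338 FPKM (AKR1B10). Whether different cells in the libraries or depletion in the RIP lay behind these values was not tested.

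At the high end the 12 protein-coding genes fell into 3 kinds. Epithelial and secreted genes formed the first: EHF, an epithelial ETS factor (86.2 FPKM in the RIP, 2.05 in the Input labelled DLD-1), the membrane serine protease PRSS8 (74.4 and 1.86), CDH17, a cadherin of intestinal epithelium (61.7 and 1.85), the neutrophil chemokine CXCL5 (166 and 5.84) and OLR1, a receptor for oxidised lipoprotein (62.5 and 1.59). Their ratios ran from 4.46 to 4.84. In the Input labelled SW480 these genes were at 36.8 to 70.9 FPKM, and their ratios over it from 0.07 to 1.22.

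Replication-dependent histone genes were the second kind. HIST1H2BH (4.79), HIST1H4C (4.66), HIST1H4K (4.405), HIST1H4D (4.31) and HIST1H4B (4.29) encode core histones from mRNAs that end in a stem-loop without a poly(A) tail. HIST1H4C was at 509 FPKM in the RIP, 19.2 in the Input labelled DLD-1 against 98.6 in the one labelled SW480. Over the Input labelled SW480 the H4 genes were at 2.05 to 3.66 and HIST1H2BH at 0.79. The 3.66 was that of HIST1H4K, which had 16 reads in the Input labelled DLD-1 and stood at 1.83 and 1.42 over the second quantifications of the Inputs labelled DLD-1 and SW480.

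RPS23 and TUBA1B were the third kind, with like Inputs, so by definition their ratios over both Inputs were close. RPS23, a protein of the small ribosomal subunit (chr5:82273320-82278354), had 221 FPKM and 19132 reads in the RIP, 5.496 FPKM and 255 reads in the Input labelled DLD-1 against 6.37 FPKM in the one labelled SW480. Its ratio was 5.09 (counting SE 0.08), and 4.91 over the Input labelled SW480, but 1.31 over the second quantification. TUBA1B, an alpha tubulin, was at 327, 13.3 and 18.6 FPKM, with ratios of 4.52, 4.06 and 2.10 in the same order. Both have many processed pseudogenes, and their counts may depend on how shared reads were assigned.

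By the definition of like Inputs, the ratios of such genes over both Inputs differ by at most 1.5-fold. They still depend on the label of the RIP. Highest after RPS23 and TUBA1B were RHOF (4.13), a small GTPase of filopodia, ATP5I (4.04), a subunit of ATP synthase, C8orf59 (3.75), TMA7 (3.46), TPT1 (3.39), the translationally controlled tumour protein, and ZFPL1 (3.36), a Golgi protein. TPT1 (chr13:45333471-45341183) was at 666 FPKM and 80778 reads in the RIP against 62.7 FPKM in the Input labelled DLD-1 against 70.4 in the one labelled SW480. Over the second quantification C8orf59 stood at 3.999, TMA7 at 1.76, TPT1 at 1.53, RHOF at 1.23, ATP5I at 1.10 and ZFPL1 at 0.25, so that 1 of the 8 kept its ratio within 1.5-fold. GAPDH, the glycolytic dehydrogenase, stood at 2.19, 2.11 over the Input labelled SW480 and 1.78 over the second quantification.

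Lowest among genes with like Inputs were BCAN (-3.03), a brain proteoglycan, the leukotriene enzyme LTC4S (-2.76), NNAT (-2.73), TMEM238 (-2.71), MXRA8 (-2.53), the kinase MAP3K12 (-2.39), POLR2A (-2.34) and CCDC136 (-2.30). POLR2A, the largest subunit of RNA polymerase II (chr17:7484366-7514616), was the most abundant of them, at 45.0 FPKM and 7652 reads in the RIP, 233 FPKM and 21200 reads in the Input labelled DLD-1 against 161 FPKM in the one labelled SW480. Its ratio was -1.82 over the Input labelled SW480 and -2.21 over the second quantification. Over the second quantification all 8 stood between -3.31 and -1.82. For the RIP labelled SW480 over the Input of that label, POLR2A stood at -1.11, CCDC136 at -1.03 and MAP3K12 at -0.27. Genes that differed neither between Inputs nor between quantifications by over 1.5-fold numbered 5643, and 571 of them were higher and 493 lower. In the 5162 protein-coding ones, 553 were higher and 289 lower.

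**Figure D4:**
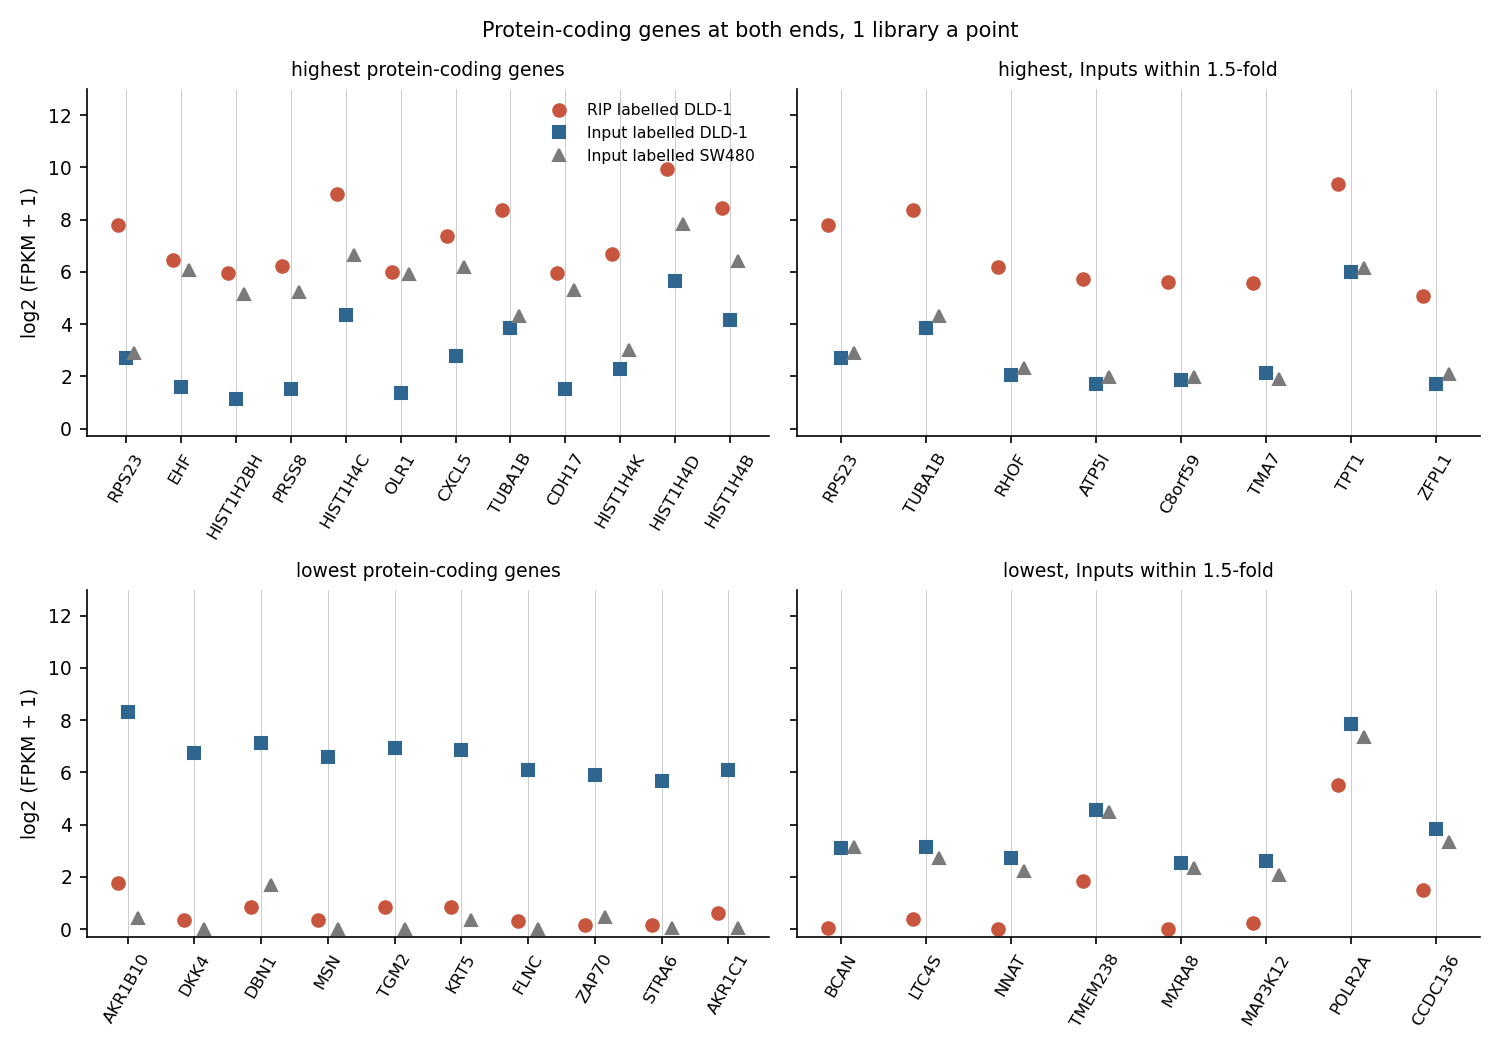
Levels as log2 of FPKM plus 1 in the RIP labelled DLD-1 (red circles), the Input labelled DLD-1 (blue squares) and the Input labelled SW480 (grey triangles) for the highest and lowest protein-coding genes (left) and for those with like Inputs (right); each point is 1 library. In the lower left panel the grey triangles lie with the red circles near 0. In the right panels both Inputs lie together, as the choice of like Inputs requires, and away from the RIP.

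Cytosolic ribosomal protein genes lay above Input. Of 83 cytosolic ribosomal protein genes 40 were higher and 1 lower, with a median of 0.98, beside -0.06 over all protein-coding genes. The RIP held 7.05% of its FPKM sum in these genes, the Input labelled DLD-1 3.27% and the Input labelled SW480 4.15%. Their median was 0.63 over the Input labelled SW480, 1.08 over the second quantification and 0.85 in the 53 with like Inputs, of which 21 were higher and 0 lower. It was 1.17 in 31 RPS genes and 0.94 in 43 RPL genes. RPS23 stood at the top and RPL26L1, a paralogue of RPL26, at the bottom (-1.31). RPL30 was at 459 FPKM against 30.6 (3.86, and 3.799 over the second quantification), whereas RPL41 (3.41) and RPL9 (3.43) stood at -0.92 and -0.53 over the second quantification. For the RIP labelled SW480 the medians of the same genes were -0.04 over the Input of that label and 0.27 over the Input labelled DLD-1.

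Proteasome and secretory genes were above Input in all 4 pairings. Of 44 genes for subunits and assembly factors of the proteasome, which degrades tagged proteins, 16 were higher (36.4%) and 0 lower. Among all protein-coding genes 14.96% were higher and 19.5% lower. The proteasome median was 0.70, 0.59 over the Input labelled SW480, 0.96 over the second quantification, and 0.43 and 0.58 for the RIP labelled SW480 over the Inputs labelled SW480 and DLD-1. PSMD13 was highest (2.54) and PSMB10, of the immunoproteasome, lowest (-0.96). Of 48 genes for entry into the secretory pathway, such as translocon and signal peptidase subunits, 14 were higher (29.2%) and 1 lower. Their median was 0.56, and 0.63, 0.64 and 0.53 in the other pairings. SPCS3, a signal peptidase subunit, was at 32.7 FPKM against 6.14 (2.24), and HSPA5, the chaperone of the endoplasmic reticulum, at 224 against 554 (-1.30), but at 0.21 over the Input labelled SW480. The 4 pairings share libraries and are not independent.

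Respiratory chain and mitochondrial ribosome genes encoded in the nucleus showed smaller ratios of the same sign. Of 76 respiratory chain genes 21 were higher (27.6%) and 5 lower (median 0.41). Of 74 mitochondrial ribosomal protein genes 18 were higher (24.3%) and 2 lower (0.39). Both medians lay between 0.35 and 0.60 in all 4 pairings. With FPKM rescaled to protein-coding genes they were smaller, at 0.20 and 0.17. Among 65 translation factor genes 11 were higher (16.9%, near the 14.96% of all protein-coding genes) and 4 lower, with EIF2A highest (2.42). Their median was 0.24, and 0.04 when rescaled. Among 22 host genes of small nucleolar RNAs, long non-coding RNAs that carry snoRNAs in their introns, 10 were higher and 1 lower (0.84), in contrast to the snoRNAs themselves. Those shares were 45.5% and 4.55%, beside 12.2% and 31% of all genes and 2.08% and 62.5% of long non-coding genes. SNHG19 stood highest (2.70), but at -0.24 over the Input labelled SW480, ZFAS1 at 2.51, SNHG6 at 2.40, SNHG3 at 2.34 and GAS5 at 1.42, and the medians in the other pairings were 0.50, 0.21 and 0.63.

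Histone and replication genes depended on the pairing. Of 57 replication-dependent histone genes 43 were higher (75.4%) and 6 lower (10.5%), with a median of 2.12, beside 14.96% and 19.5% of all protein-coding genes. They made up 3.16% of the FPKM sum of the RIP, 0.589% of the Input labelled DLD-1 and 1.34% of the Input labelled SW480. By type the medians were 3.41 in 11 H4 genes, 2.31 in 11 H3 genes, 2.29 in 5 linker histone genes, 1.86 in 17 H2B genes and 1.41 in 13 H2A genes. HIST1H2AE was lowest, at 9.52 FPKM against 259 (-4.63), and at -0.08 over the Input labelled SW480. Over that Input the list's median was 0.90, and for the RIP labelled SW480 it was -0.53 and 0.46. The 42 genes of DNA replication, such as MCM helicase and polymerase subunits, had 12 higher (28.6%, beside 14.96% of all protein-coding genes) and 0 lower. Their median was 0.72, but 0.02 over the Input labelled SW480. TYMS, which makes thymidylate, stood highest (3.25), and at 0.74 over the second quantification.

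Some mRNA lists had medians below 0. Of 22 immediate early and stress genes, whose mRNAs turn over fast, 10 were lower (45.5%) and 6 higher (27.3%). Both shares were above the 19.5% and 14.96% of all protein-coding genes. Their median was -0.82, and -0.35 over the Input labelled SW480. FOS was at 52.2 FPKM in the RIP, 233 in the Input labelled DLD-1 against 229 in the one labelled SW480 (-2.14), and EGR3 (-2.29), FOSB (-1.72) and FOSL1 (-1.64) were also low, while IER2 stood at 2.62 and at 0.43 over the second quantification. In the 12 with like Inputs, 9 were lower and 0 higher. Of 43 dynein, myosin, spectrin and plakin genes, which encode very long proteins, 10 were lower and 3 higher. The 23.3% of them that were lower was near the 19.5% of all protein-coding genes. Their median was -0.69, and -0.53 over the Input labelled SW480, with a median length of 7889 bases. Of 94 chromatin regulator genes 14 were lower and 4 higher (-0.30, and -0.35 over the Input labelled SW480), and their 14.9% that were lower was below the 19.5% of all protein-coding genes. Of 20 keratin genes 11 were lower (55%, beside 19.5% of all protein-coding genes) and 2 higher (10%), with a median of -1.11. Over the Input labelled SW480 that median was 0.00.

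Of 11 genes on the list of nuclear long non-coding RNAs, 0 were higher and 4 lower, with a median of -0.23. The 36.4% that were lower was near the 31% of all genes. It was below the 62.5% of all long non-coding genes, whose median was -1.24. MALAT1, a nuclear speckle RNA, was at 345 FPKM and 75733 reads in the RIP, 1200 in the Input labelled DLD-1 against 1174 in the one labelled SW480 (-1.79, and -2.46 over the second quantification). NEAT1, the scaffold of paraspeckles, stood at -0.23 and KCNQ1OT1, an imprinted antisense transcript, at -1.45. NORAD, a cytoplasmic RNA that binds Pumilio proteins, was at 145 against 75.9 FPKM (0.92).

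Lists close to 0 included 324 ZNF genes (median -0.10, 27 higher and 46 lower), 208 solute carriers (-0.15), 119 ubiquitin ligases (-0.03), 56 genes of ribosome biogenesis (0.13), 34 HNRNP and SRSF splicing factors (0.07), 47 spliceosome genes (0.35), 35 aminoacyl-tRNA synthetases (-0.07), 72 chaperones (-0.11), 18 glycolysis genes (-0.01) and 24 cholesterol genes (-0.21). The 12 replacement histone genes (0.28), 47 RAB GTPases (0.18), 37 kinesins (0.09), 22 interferon response genes (0.20), 14 Wnt targets (0.23) and 31 genes of the Wnt destruction complex (-0.22) were in the same range. With FPKM rescaled to protein-coding genes, which moved the median of all genes from -0.33 to -0.53, the lists of ribosome biogenesis (-0.09), splicing factors (-0.16), kinesins (-0.08), RAB GTPases (-0.02) and Wnt targets (-0.0031) turned to below 0. The 21 S100 and annexin genes were at 0.76, and 42 integrin, laminin, plexin and lipoprotein receptor genes (-0.36), 23 tubulins and actins (-0.36) and 13 MHC class I genes (-0.53) were below 0. Only 5 RNAs of the 7SL, 7SK, Y and RNase P/MRP list, 4 metallothioneins and 2 cancer-testis genes passed the filter, with medians of -2.17, -1.20 and -1.61.

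**Figure D5:**
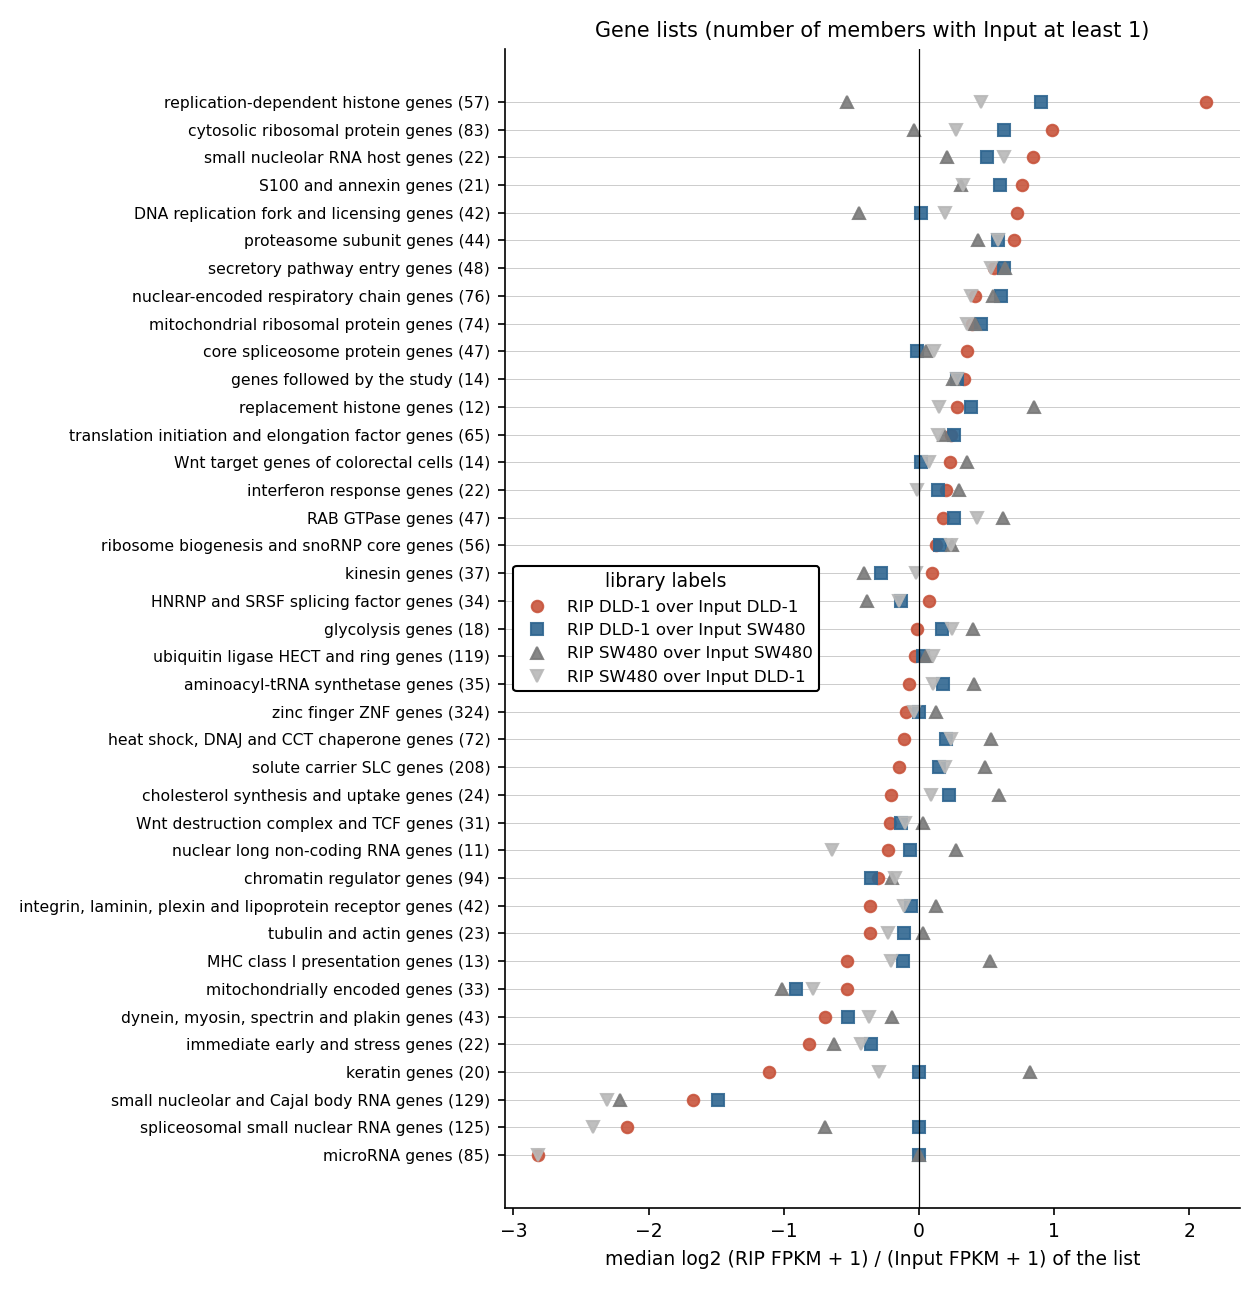
Median log2 ratio of RIP to Input for each gene list with at least 10 members that passed the filter (numbers in brackets), for the 4 pairings of RIP and Input labels; 0 is an equal level. Small nucleolar RNAs lie left of -1.4 and proteasome and secretory genes right of 0.4 in every pairing, while histone and keratin genes change side.

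The genes that the study followed lay near Input. NAT10 itself (chr11:34105629-34146908) was at 14.3 FPKM in the RIP, 23.03 in the Input labelled DLD-1 against 21.2 in the one labelled SW480, the lowest of 14 at -0.65 (counting SE 0.05). KIF23, a kinesin of the midzone in dividing cells (chr15:69414349-69448427), was at 31.2, 19.6 and 34.3 FPKM, with ratios of 0.64 and, over the Input labelled SW480, -0.13. BIRC5, the apoptosis inhibitor survivin, was the only one past 2-fold (1.09, and 0.64 over the Input labelled SW480). NAP1L4 stood at 0.85, CTNNB1, the Wnt effector beta-catenin, at 0.49, POU2F1 at 0.48, HNRNPA2B1 at 0.43, MYC at 0.36, HNRNPH3 at 0.31, BCL2L1 at 0.10, MPP6 at 0.05, GSK3B at 0.04, UBA1 at -0.17 and CCND1 at -0.41. The median of the 14 was 0.34, and between 0.25 and 0.28 in the other pairings. KIF23, NAP1L4, POU2F1, HNRNPA2B1, HNRNPH3, MPP6 and UBA1 came from candidates that the paper ranked by fold enrichment in its RIP-seq and acRIP-seq. That median is thus not independent of these RIP libraries.

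Genes with an ac4C peak in the acRIP labelled DLD-1 were more often above Input than below it. Peaks called by the authors lay in 62.1% of the higher genes (59.9 to 64.3, Wilson 95% interval), in 49.7% of the genes between and in 12.9% of the lower genes (12.02 to 13.9). In protein-coding genes with like Inputs the shares were 71.9% of 762, 59.1% of 5457 and 37.9% of 398. The median Input level of these 3 sets was 7.65, 11.0 and 10.4 FPKM. Both measures use an Input library of the same label, and peaks need reads, so a short or rare RNA has less chance of a peak.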

How the data were processed

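RNA of DLD-1 and SW480 cells was sequenced as Input, NAT10 RIP and ac4C RIP, with 1 library a group, and groups were taken from the sample titles. The authors deposited FPKM values per Ensembl gene. The submitters' processing notes name cutadapt 2.5 and HISAT2 2.1.0, and the counting tool and strand setting are not given in the sources used here. Where the paper names IgG as the partner of the RIP, labels and table have Input. The deposited ratios of RIP to Input were not used, and from the deposited ac4C peak list, whose fold enrichment ratio was not read, only host genes were taken.

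Whole reads and lengths were recovered from the FPKM steps for all 29953 genes above 0, as the smallest length that gave whole reads in the 4 columns, so both are lower limits. Of 134 small RNA genes with at least 20 reads, 96 had the RefSeq length. The step was tested on simulated data. Counting errors came from the delta method.

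The log2 ratio used a pseudocount of 1, which understates the change of low genes, and an Input FPKM of at least 1. The second quantification was scaled to the median of shared genes. Named genes were the 12 highest and 12 lowest protein-coding genes with at least 50 reads in RIP and Input together, 8 and 8 with like Inputs, 6 and 6 of other classes, the ends of each list and the genes the study followed. Genes that are not reported here were left out of these. Other genes were named after their values were seen. Among the other classes, the pseudogenes AC004057.1, AC078817.1 and RPL41P1 and a U1 copy stood at 5.09, 4.54, 4.08 and 3.84. The members and the 42 gene lists were chosen with earlier results of these data known. Python 3.11.15, pandas 2.3.3, numpy 2.4.6, scipy 1.17.1 and matplotlib 3.10.9 were used. Protein sequences were not analysed here.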

Additional observations from a re-analysis of the deposited data

How the results depend on the processing

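Values rest on 1 library a side, so the spread between RIP experiments is unknown, and the depth limits genes of few reads: 1982 of the 15599 genes differed by less than 2 counting errors. Most settings were named before the tables were opened, and those on the Input labelled SW480 with its own filter, on its second quantification and on genes alike in both quantifications were added after seeing the data. No paired analysis was possible because each group held 1 library. The planned protein features were not run, since no protein table was used here.

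The counts of higher and lower genes were 1896 and 4832. They became 1089 and 1460 with a pseudocount of 5, 652 and 1308 with Input at least 10, 822 and 976 with like Inputs, 1243 and 2815 over the Input labelled SW480 with its own filter, and 359 and 1507 at 4-fold. Higher genes numbered 3155 with RIP or Input above 0 or at least 1. Lower genes numbered 1456 over the Input labelled SW480, 1473 over its second quantification and 2563 among genes alike in both quantifications. The other 29 values of counts and of the protein-coding median stayed within 1.5-fold. Rescaled to protein-coding genes, 1377 were higher and 5531 lower.

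Among the 500 highest genes 88.6% were protein-coding, 6.6% pseudogenes and 2% small RNA genes, and among the 500 lowest 43.6% were protein-coding, 30% small RNA genes, 12.4% pseudogenes and 11.6% long non-coding. The median length of lower genes was 3314 in protein-coding genes alone, against 1363.

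Of 571 list medians under the alternatives, 522 stayed within 1.5-fold, 44 moved further, and 5 changed sign from a 2-fold value. Sign changes of smaller medians are not in that count of 5. Metallothionein genes stood at 0.057 over the Input labelled SW480, 0.11 with its own filter and 0.42 over its second quantification, and microRNA genes at 0.96 and 1.23 with RIP or Input above 0 or at least 1. Among named genes, over the Input labelled SW480 and, where also positive, its second quantification, AKR1B10 stood at 1.33 and 1.27, TGM2 at 0.86 and 0.45, KRT5 at 0.52 and 0.18, AKR1C1 at 0.57 and 0.17, DKK4 at 0.34, MSN at 0.36, FLNC at 0.31, STRA6 at 0.13, HSPA5 at 0.21 and SNHG19 at -0.24. Over that second quantification alone, HIST1H2AE stood at 1.51, RNA5-8S4 at 0.19, SNORD3B-2 at -0.047, TYMS at -0.23, IER2 at -0.50 and MIR1244-2 at -0.81. RNA5-8S4 stood at 0.13 over the second quantification of the Input labelled DLD-1. Among all values of named genes under the alternatives, 375 moved beyond their counting error, 549 did not, and 23 changed sign from a 2-fold value. The cause of these changes was not tested.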
